A study of Mus musculus with 27 samples.

Results

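Bulk RNA sequencing of cultured mouse bone marrow derived macrophages (BMDMs) was compared between an early state after imidazole propionate (ImP), held by libraries M14, M18 and M22, and the unstimulated state at 0 h, held by libraries M13, M17 and M21. ImP is a metabolite that gut bacteria make from the amino acid histidine. These 6 libraries are among 9 macrophage libraries and 27 libraries in all, and the other cell types of the series are embryonic fibroblasts (MEFs) and cells labelled aortic endothelial (MAECs). The early libraries had ImP at 10 µg/mL, and the 0 h libraries had none. Macrophages were plated in equal numbers in wells and rested overnight before ImP, and the series asks which pathways respond to ImP in the different cells. The sources used here give no strain, sex or age of the mice and no vehicle group at 1 or 2 h, so ImP and time in culture share every comparison below. Nor do they state whether the 3 libraries of a group derive from different cultures or animals. A p-value here therefore speaks only to the spread among these libraries, and that spread may be technical.

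The early group follows measured values and not the labels alone. M14 and M18 are labelled 1 h, but M22 is labelled 2 h, and M23, labelled 1 h, was placed with M15 and M19, which are labelled 2 h. The members of the early group were thus chosen by measured values: the inflammatory genes of M22 and M23 each matched the other group. Tnf, which encodes the cytokine TNF, shows the layout: it had 227, 220 and 266 CPM (counts scaled to library size, with TMM factors) in M14, M18 and M22, against 15.2, 14 and 15.2 CPM in M13, M17 and M21. M23 had 18.3 CPM of Tnf, within 14.3 to 18.5 CPM in M15 and M19 and far below M14 and M18. The deposited 1 h table holds M23 and the deposited 2 h table holds M22, so the tables follow the labels. In 8 of the 9 runs of consecutive library codes the labelled times follow 0, 1 and 2 h, and the run M21, M22 and M23 is the 1 in which they do not. What produced the layout was not tested. Because the values chose the group, levels and fold changes of M14, M18 and M22 over 0 h are given as a description with no p-value. Tests are given for the labelled contrast (M14, M18 and M23 against 0 h) and for a fit of 7 macrophage libraries that leaves out both M22 and M23. Since M22 and M23 were left out for their outcome, that second fit gives smaller p-values than a test planned beforehand would.

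Depth was alike in both states, at 31012363 to 34611869 counts in the early libraries and 30644662 to 35583478 counts at 0 h. The chi-squared per degree of freedom between libraries of a state was 5.73 to 9.9 within the early group and 13.13 to 60.46 within the 0 h group, so none was a copy of another. M17 stood apart at 0 h: the ribosomal RNA gene CT010467.1 took 1.98% of its counts, against 0.112% to 0.129% in the early libraries and 0.19% and 0.331% in M21 and M13. The libraries carried the transcripts of their labelled cell type. Of 12 macrophage markers 11 reached a mean of 10 CPM, led by the lysozyme gene Lyz2, and the 12 together summed to 22600 to 23100 CPM in the early libraries and 23200 to 25200 CPM at 0 h. Of these 12 markers 10 overlapped between states, 1 lay above 0 h (8.33%, beside 6.64% of all genes) and 1 lay below (8.33%, beside 6.91%). The number of macrophages and the level of a transcript per macrophage cannot be told apart in bulk libraries. Neutrophil markers summed to 15.4 to 18.7 CPM in the early libraries and 12.3 to 13.1 CPM at 0 h. Of the 4 tested, Ngp, S100a9 and Ltf lay above 0 h in all 3 early libraries (75%, beside 6.64% of all genes) and S100a8 overlapped. Ly6g was at 0 in all 6. Their part in the results below was not tested. Dendritic (1.6 to 2.12 against 1.21 to 1.65 CPM), lymphocyte (32.9 to 35.8 against 30.9 to 33.4 CPM), fibroblast (8.45 to 11.4 against 6.67 to 12.6 CPM) and endothelial markers (204 to 219 against 204 to 223 CPM) overlapped between the early and the 0 h libraries.

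Macrophages meet microbial products through Toll-like receptors, which act through NF-kB and mitogen-activated protein kinases. Immediate early genes and NF-kB targets are transcribed within minutes, among them cytokines, chemokines and the proteins that later switch the same pathways off. SMAD signalling downstream of TGF-beta and bone morphogenetic proteins (BMPs) drives a separate set of rapid targets such as the Id genes.

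Among differences of 2-fold or more, most were genes that were higher in the early state. Of 13251 genes tested, 126 were at least 2-fold higher with all 3 early libraries above all 3 libraries at 0 h (0.951% of genes), and 35 were at least 2-fold lower with all 3 below (0.264%). Among genes that averaged 1 CPM or more, 69 were on the higher side and 5 on the lower side. Of the 69 genes, 27 were at least 4-fold higher. With no condition on fold, 880 genes lay above 0 h without overlap (6.64%) and 915 lay below (6.91%), so absence of overlap alone was as frequent in either direction. The median log2 fold change of all genes was -0.003. In the 7-library fit, edgeR with Benjamini-Hochberg adjustment called 111 of 13465 genes higher (0.824%) and 14 lower (0.104%), and the contrast as labelled had 3 genes higher (0.0226%) and 0 lower (0%) of 13251. There DESeq2 found 12 higher and 1 lower, and 693 genes had an edgeR p under 0.05 before adjustment. The shares of all genes in this paragraph are those to set beside the counts of each gene group below.

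**Figure D1:**
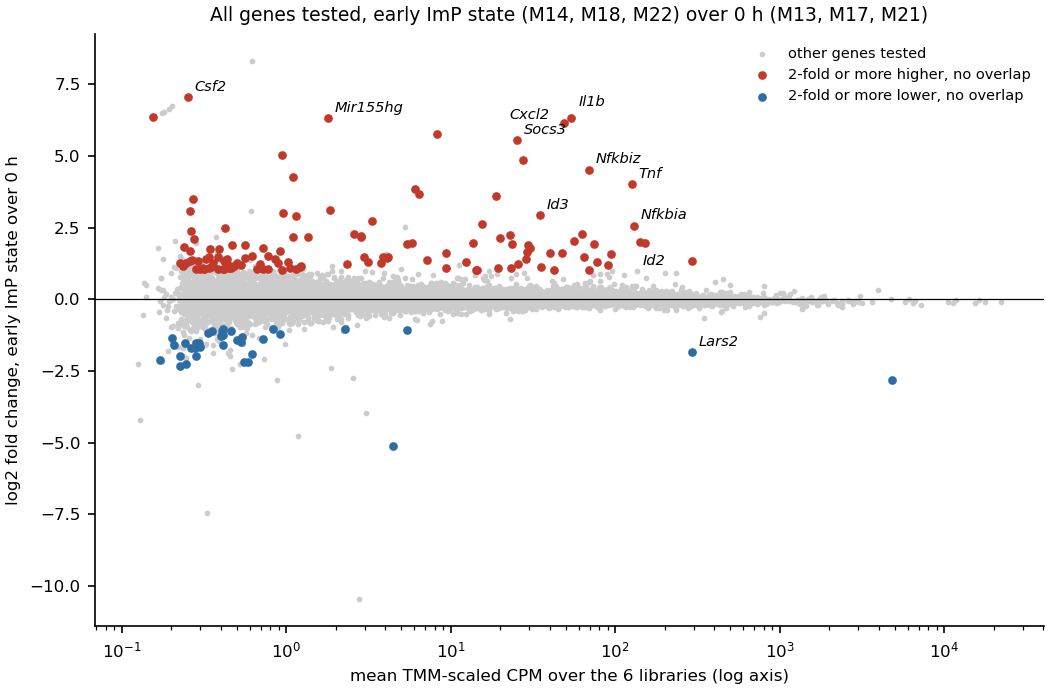
Mean level over the 6 libraries (TMM-scaled CPM, log axis) against the log2 fold change of the early ImP state over 0 h, 1 point per gene tested. Red points are the 126 genes at least 2-fold higher without overlap and blue points the 35 at least 2-fold lower; among genes with a high level the red points include Tnf, Nfkbia and Nfkbiz, and Lars2 is marked on the lower side.

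Genes for secreted inflammatory mediators are given first. Il1b (chr2:129364570-129371139, GRCm38), which encodes the precursor of interleukin-1 beta, had 106, 101 and 112 CPM in M14, M18 and M22, against 1.33, 1.58 and 1.02 CPM in M13, M17 and M21. The states are far apart for this gene, the log2 fold change was 6.32 (SE 0.29), and M23, at 0.955 CPM, lay below all 3 libraries at 0 h. Il1a, for the related cytokine interleukin-1 alpha, had 35.5, 33.4 and 35.9 CPM in the early libraries, against 2.25, 2.9 and 3.57 CPM at 0 h (log2 fold change 3.59). Of 8 tested members of the interleukin-1 family and its receptors, these were the 2 at least 2-fold higher, and they were the 2 called higher in the 7-library fit. The median of the 8 was 0.03, beside -0.00 for all genes. The receptor gene Il1r1 was above 0 h in all 3 early libraries (0.90), but it averaged under 1 CPM and was not called in the 7-library fit. The receptor antagonist gene Il1rn had 43.3 to 54.1 CPM in the early libraries and 45.4 to 47.6 CPM at 0 h, which overlap.

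Tnf (chr17:35199381-35202007) was 4.01 higher on the log2 scale (SE 0.10), and the 7-library fit gave 3.92 (SE 0.095, edgeR adjusted p = 2.29e-11). Tnfsf9 encodes 4-1BBL, a ligand that co-stimulates T cells, and had 54.1, 52.1 and 54.5 CPM in the early libraries, against 1.97, 1.64 and 1.98 CPM at 0 h. Cd40, the receptor for CD40 ligand, was moderately higher, with 13.1 to 14.3 CPM in the early libraries and 7.54 to 8.56 CPM at 0 h. Those 3 genes were the members called higher among 19 tested genes of TNF family ligands and receptors, whose median was 0.07. Tnfrsf1a and Tnfrsf1b, the 2 receptors of TNF, had log2 fold changes of -0.09 and 0.07.

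Among 12 other cytokine and growth factor genes tested, 6 lay above 0 h in all 3 early libraries (50%, beside 6.64% of all genes). In the 7-library fit 4 were called higher, beside 0.824% of all genes. Il10, which encodes an anti-inflammatory cytokine, had 6.05, 5.7 and 5.66 CPM in the early libraries, against 0.919, 0.862 and 0.826 CPM at 0 h (7-library fit 2.75, SE 0.31, edgeR adjusted p = 2.07e-04). Il10 was therefore on the higher side together with the pro-inflammatory genes. Il12b, for a subunit shared by interleukins 12 and 23, had 2.06, 1.53 and 1.89 CPM in the early libraries, against 0, 0 and 0.165 CPM at 0 h. Csf2, for the growth factor GM-CSF, had 17, 17 and 16 counts in the early libraries and 0 in each library at 0 h. Against a floor of 3 counts over the 0 h group, which covers counting error only, Csf2 was at least 16.7-fold higher. Osm (0.75) and Vegfa (0.50), for oncostatin M and a vascular growth factor, were the other 2 called higher.

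**Figure D2:**
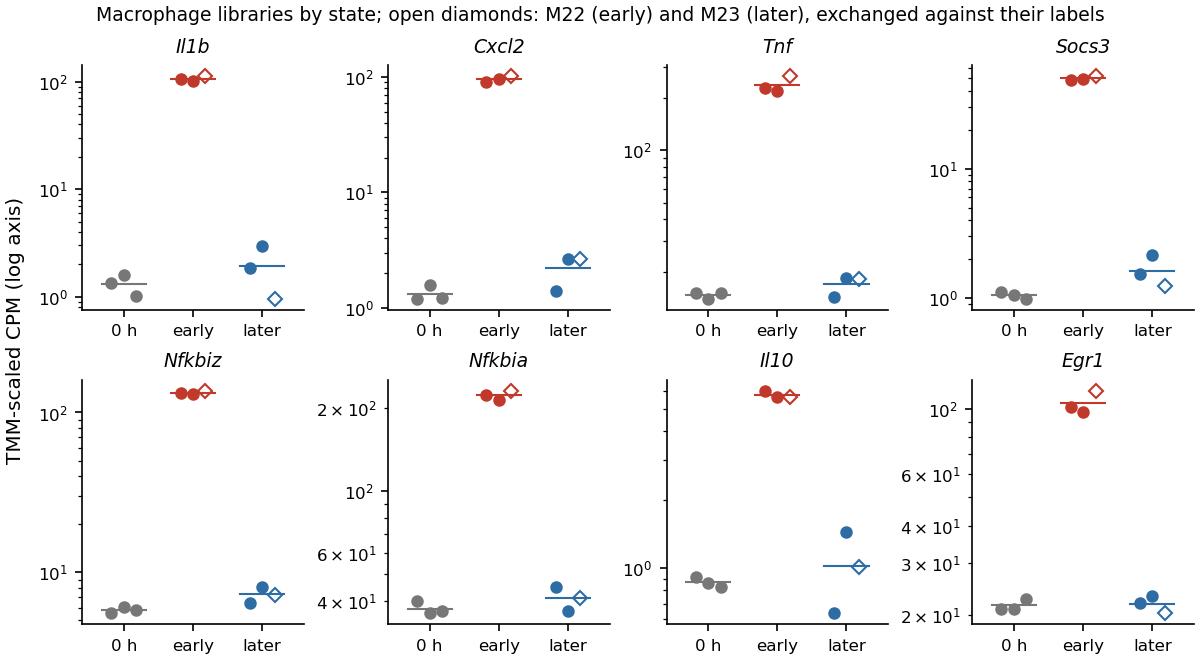
TMM-scaled CPM (log axes) of 8 genes in each macrophage library at 0 h, in the early state and in the later state; bars are means of 3 libraries and open diamonds are M22 (early) and M23 (later). In each panel the 3 early libraries lie together above all the others, as for Nfkbiz at 131 to 137 CPM, and the later libraries lie near 0 h.

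Of 6 CXC chemokine genes 4 lay above 0 h without overlap (66.7%, beside 6.64% of all genes) and 1 lay below, with a median log2 fold change of 1.09, and of 11 CC chemokine genes 3 lay above (27.3%) and 0 below, with a median of 0.03. Cxcl2 and Cxcl1, neighbouring genes for chemokines that attract neutrophils, had log2 fold changes of 6.15 (SE 0.17) and 5.78 (SE 0.55). Cxcl2 had 90.5, 96 and 101 CPM in the early libraries, against 1.2, 1.58 and 1.22 CPM at 0 h. Cxcl1 had 13.4, 14.5 and 20.5 CPM in the early libraries, against 0.159, 0.402 and 0.298 CPM at 0 h. Cxcl10, whose product attracts T cells through CXCR3, was less far apart, at 9.27, 7.21 and 9.4 CPM in the early libraries and 1.49, 2.96 and 2.25 CPM at 0 h. These 3 were the members called higher among 7 CXC chemokine genes in the 7-library fit, beside 0.824% of all genes. Of the CC chemokine genes 0 were 2-fold higher without overlap, and edgeR called 0 of 10 in the 7-library fit (3 at an unadjusted p under 0.05). Ccl3, for a chemokine that attracts monocytes, had 78.4 to 83 CPM in the early libraries and 58 to 66.9 CPM at 0 h, a log2 difference of 0.34, and Ccl2 overlapped, with 70.6 to 86.8 CPM in the early libraries and 59.7 to 74.1 CPM at 0 h.

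Inhibitors and feedback regulators of NF-kB were the group with the largest share of members above 0 h: 11 of 13 (84.6%, beside 6.64% of all genes), with a median log2 fold change of 0.71 and 7 called higher in the 7-library fit. Nfkbiz (chr16:55811375-55838899), which encodes the nuclear regulator I-kappa-B-zeta, had 132, 131 and 137 CPM in the early libraries, against 5.55, 6.09 and 5.82 CPM at 0 h. Nfkbia (chr12:55489410-55492647) encodes I-kappa-B-alpha, which holds NF-kB in the cytoplasm, and had 224, 215 and 232 CPM in the early libraries, against 39.9, 36.2 and 36.7 CPM at 0 h. Tnfaip3, for the ubiquitin-editing enzyme A20, had 233, 232 and 263 CPM in the early libraries, against 63.3, 59.4 and 64.1 CPM at 0 h. The ranges of the 3 genes do not overlap between states. The related inhibitor genes Nfkbie (1.08), Nfkbid (0.98) and Bcl3 (0.75) and the TNF-induced gene Tnfaip2 (0.71) completed the 7 called higher. Cyld, another deubiquitinase that restrains NF-kB, had a log2 fold change of 0.00. Among 5 genes for NF-kB subunits, Relb (0.53), Nfkb2 (0.45) and Rel (0.43) were called higher in the 7-library fit, and Nfkb1 had 111 to 114 CPM in the early libraries and 101 to 112 CPM at 0 h.

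Promoter sequences are shown for the 4 genes, among the 20 named genes furthest above 0 h, that carry a match to the NF-kB consensus in the 250 bases before their start. Among other genes described here Cxcl10, Tnfaip3, Nfkbie, Maff, Fosb, Tlr2 and Irf1 also held a match. Sequences are from RefSeq on GRCm38.p6, run 5′ to 3′ on the strand of the gene, and carry the match in capitals; both strands were searched. In Cxcl1 and Cxcl2 a second match on the other strand overlaps the one shown by all but 1 base.
Cxcl1, chr5:90891149-90891208, plus strand: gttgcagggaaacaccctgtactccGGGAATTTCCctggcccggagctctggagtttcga
Cxcl2, chr5:90903777-90903836, plus strand: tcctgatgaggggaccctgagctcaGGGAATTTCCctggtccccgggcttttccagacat
Nfkbia, chr12:55492648-55492701, minus strand: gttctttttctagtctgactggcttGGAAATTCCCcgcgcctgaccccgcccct
Ier3, chr17:35821596-35821655, plus strand: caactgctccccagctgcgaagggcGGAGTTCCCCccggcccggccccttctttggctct
Of these 20 genes 14 had a promoter in the table, and 4 of these 14 (28.6%) held a match, beside 1204 of 27025 genes with a promoter (4.46%). Among the 34 listed genes at least 2-fold higher that had a promoter, 11 (32.4%) held a match. A match is a description of letters and not of binding.

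Immediate early transcription factor genes were also higher. Egr1, a zinc finger factor, had 101, 97.2 and 115 CPM in the early libraries, against 21, 21 and 22.6 CPM at 0 h. Nr4a1, an orphan nuclear receptor induced by many signals, had 45.2, 49.5 and 44.2 CPM in the early libraries, against 11.9, 12 and 13.3 CPM at 0 h. Of 8 tested EGR and NR4A genes 4 were at least 2-fold higher without overlap, beside 0.951% of all genes, and the median log2 fold change of the 8 was 0.94. The same number (Egr1, Egr2, Egr3 and Nr4a1) were called higher in the 7-library fit, beside 0.824% of all genes. Nr4a2 had a log2 fold change of -0.09. Among 12 genes of the FOS, JUN and ATF families 7 lay above 0 h (58.3%, beside 6.64% of all genes), and Maff (1.94), Fosb (1.49) and Fos (0.86) were called higher. Junb, a subunit of the factor AP-1, had 233, 231 and 212 CPM in the early libraries, against 74.1, 29.9 and 67.2 CPM at 0 h. M17 was low for Junb, and the 7-library fit did not call it (2.03, SE 0.41, edgeR adjusted p = 0.315), but did when M17 was left out (1.72, edgeR adjusted p = 5.24e-12). That choice was made after the spread of M17 was seen. Without M13 or M21 Junb was not called (edgeR adjusted p = 0.299 and 0.431). Jun (0.45) was above 0 h in all 3 early libraries, and Atf3 (0.03) and Myc (-0.15) overlapped between states.

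Of 27 other immediate early genes 16 lay above 0 h (59.3%, beside 6.64% of all genes). In the 7-library fit 9 were called higher, beside 0.824% of all genes, and 1, Rgs2, was called lower, beside 0.104%. Ier3, a survival-linked gene, had 41.4, 37.5 and 35.7 CPM in the early libraries, against 7.96, 8.51 and 7.74 CPM at 0 h. Csrnp1 (1.98), Btg2 (1.62) and Phlda1 (1.36) were further members called higher. Ier2 had 45.6, 42 and 36.4 CPM in the early libraries, against 19.6, 10.6 and 17.3 CPM at 0 h. The 7-library fit did not call Ier2 (edgeR adjusted p = 0.0728). It was called without M17 (edgeR adjusted p = 8.92e-08) or M13 (edgeR adjusted p = 0.0188), but not without M21 (edgeR adjusted p = 0.192). Rgs2, an inhibitor of G protein signalling, had 272, 301 and 295 CPM in the early libraries, against 364, 358 and 351 CPM at 0 h.

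Several genes whose products end signalling or destroy cytokine transcripts were higher in the same libraries. Socs3 (chr11:117966079-117970047), which blocks cytokine receptor signalling through JAK kinases, had 48.6, 49.5 and 51.5 CPM in the early libraries, against 1.11, 1.06 and 0.992 CPM at 0 h. It was the 1 member of 8 SOCS family genes called higher in the 7-library fit (5.53, SE 0.15, edgeR adjusted p = 4.59e-11). Socs1 lay below 0 h instead, with 1.28, 0.795 and 0.672 CPM in the early libraries and 1.3, 1.49 and 1.45 CPM at 0 h, a gap of 0.02 CPM between M14 and M13.

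Dual-specificity phosphatases dephosphorylate mitogen-activated protein kinases, and Dusp2 (2.63), Dusp1 (1.92) and Dusp5 (1.32) were called higher among 11 tested. Dusp1 had 120, 114 and 119 CPM in the early libraries, against 33.5, 26.5 and 33.1 CPM at 0 h. Dusp6 (-0.26), Dusp7 (-0.20) and Dusp3 (-0.12) lay below 0 h in all 3 early libraries, so the family did not move as one. Among 12 regulators of mRNA decay Zfp36, Zc3h12a, Zc3h12c and Zfp36l1 were called higher. Zfp36, whose product tristetraprolin binds AU-rich cytokine transcripts, had 416, 415 and 426 CPM in the early libraries, against 166, 174 and 161 CPM at 0 h. Zc3h12a, for the ribonuclease regnase-1, had 32.4, 28.9 and 33.8 CPM in the early libraries, against 16.4, 13.8 and 14.9 CPM at 0 h. The roquin genes Rc3h1 (-0.07) and Rc3h2 (-0.12) overlapped.

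Another pair of signal-responsive elements was searched in the same promoters, the cyclic AMP response element TGACGTCA and the CArG box bound by serum response factor, on both strands. The 14 named genes with a promoter held 0 matches to either. Of the 34 listed genes at least 2-fold higher 3 (8.82%) held the first, beside 478 of 27025 genes (1.77%), and 3 (8.82%) held the second, beside 439 of 27025 (1.62%). Dusp1 and Egr2 are shown as members of the groups just described, with the match in capitals.
Dusp1, chr17:26508583-26508640, minus strand: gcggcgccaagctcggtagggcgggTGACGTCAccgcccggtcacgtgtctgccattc
Egr2, chr10:67537772-67537831, plus strand: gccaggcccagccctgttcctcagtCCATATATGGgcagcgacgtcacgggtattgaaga

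Mir155hg (chr16:84703167-84715245), the host transcript of miR-155, a microRNA induced by inflammatory signals, had 74, 114 and 162 counts in M14, M18 and M22, against 2, 2 and 0 in M13, M17 and M21. The log2 fold change of 6.31 (SE 0.62) rests on the 4 counts at 0 h. These libraries measure the host transcript and not the mature microRNA, whose sequence is given because it is the product of this locus; it is from RefSeq, with the seed, bases 2 to 8, in capitals.
mmu-miR-155-5p, chr16:84714143-84714165, plus strand: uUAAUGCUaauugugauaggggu

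Enzymes of inflammatory mediators were represented by a few members. Ptgs2, for the inducible cyclooxygenase of prostaglandin synthesis, had 11.4, 11.8 and 10.7 CPM in the early libraries, against 0.919, 0.546 and 0.893 CPM at 0 h. Acod1, for the enzyme that makes itaconate, had 12.1, 9.56 and 14.3 CPM in the early libraries, against 0.888, 0.977 and 0.926 CPM at 0 h. With the mitochondrial superoxide dismutase gene Sod2 (0.59) they were the 3 called higher among 12 tested genes of prostaglandin, itaconate and arginine metabolism. Ptgs1, for the constitutive cyclooxygenase, had a log2 fold change of -0.02.

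Receptor and sensor genes were mostly near 0 h. Of 21 Toll-like receptor and adaptor genes 3 lay above 0 h (14.3%, beside 6.64% of all genes) and 0 below, with a median log2 fold change of -0.02. In the 7-library fit 2 of them were called higher, beside 0.824% of all genes. Tlr2, the receptor for bacterial lipoproteins, had 110, 101 and 119 CPM in the early libraries, against 40.7, 47.8 and 44.2 CPM at 0 h. Cd14, the co-receptor for lipopolysaccharide, had 300, 301 and 279 CPM in the early libraries, against 232, 235 and 191 CPM at 0 h. Tlr4 (-0.12) overlapped between states. Among 9 inflammasome genes 3 lay above 0 h (33.3%, beside 6.64% of all genes) and 1 below (11.1%, beside 6.91%). Nlrp3, the sensor of the best known inflammasome, was the 1 called higher, with 117, 115 and 116 CPM in the early libraries and 59.6, 66.9 and 60.4 CPM at 0 h, whereas Casp1 (-0.10) overlapped.

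Of 22 tested interferon-response genes 1 lay above 0 h (4.55%, beside 6.64% of all genes) and 1 below (4.55%, beside 6.91%), shares near those of all genes, with a median of -0.10. The 1 above was Irf1, a transcription factor that NF-kB can also induce, with 136, 137 and 149 CPM in the early libraries and 43.6, 53.4 and 45.3 CPM at 0 h. The 1 below was Usp18, with 20.2, 19.8 and 20.4 CPM in the early libraries and 23.2, 25.1 and 22.1 CPM at 0 h.

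**Figure D3:**
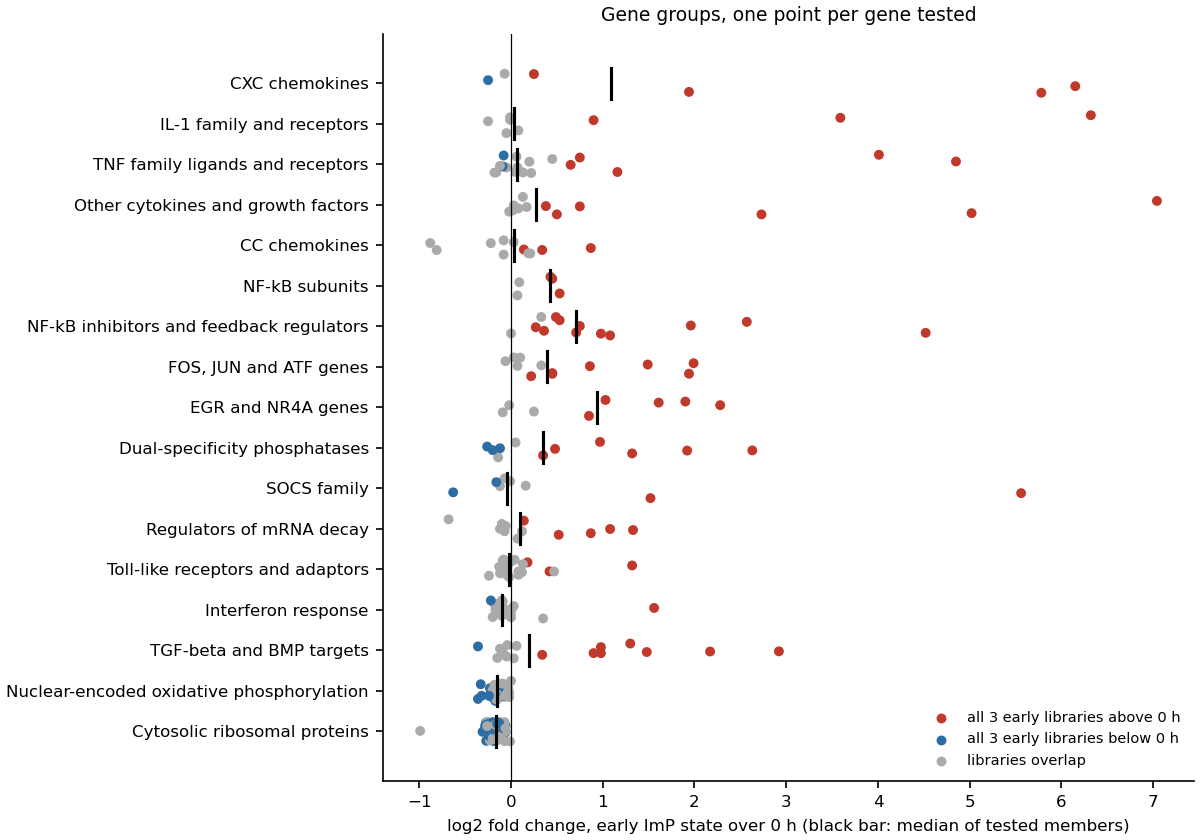
Log2 fold change of the early ImP state over 0 h for the tested members of 17 gene groups, 1 point per gene; red marks genes with all 3 early libraries above 0 h, blue all 3 below, grey overlap, and the black bar is the group median. NF-kB inhibitors and feedback regulators have 11 of 13 red points, interferon-response genes 1 of 22, and ribosomal protein genes 45 of 83 blue points just left of 0.

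Of the 3 calls of the contrast as labelled, 2 were targets of TGF-beta and BMP signalling. Id2, a helix-loop-helix inhibitor of differentiation, had 170, 185 and 184 CPM in M14, M18 and M22, against 92.9, 90.6 and 90.5 CPM at 0 h, and 181 CPM in M23. It rose by 0.97 as labelled (edgeR adjusted p = 2.55e-06). Skil, a SMAD-binding repressor, had 127, 117 and 137 CPM in the early libraries, against 55.1, 66.6 and 71.6 CPM at 0 h, and 118 CPM in M23 (0.91 as labelled, edgeR adjusted p = 0.007). Bhlhe40, a repressor of the core clock list, was the other call, with 48.6, 48.5 and 49.3 CPM in the early libraries, 35.3, 35.1 and 34.6 CPM at 0 h and 50.3 CPM in M23 (0.49, edgeR adjusted p = 0.007). In these 3 genes M22 and M23 were both high, and with the pair exchanged the log2 fold changes were 0.98, 0.98 and 0.48. The call of Skil as labelled ended without M17 (edgeR adjusted p = 0.0862) and that of Bhlhe40 without M21 (edgeR adjusted p = 0.063).

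Of 16 tested TGF-beta and BMP targets 8 lay above 0 h (50%, beside 6.64% of all genes) and 1 lay below (6.25%, near the 6.91% of all genes). In the 7-library fit 5 were called higher, beside 0.824% of all genes. Id3 was the member with the highest log2 fold change (2.92, SE 0.096): it had 8.94, 8.33 and 7.21 CPM at 0 h, 64.5, 61.7 and 59.9 CPM in the early libraries and 41.2, 33.9 and 36.6 CPM in the later libraries M15, M19 and M23. The 3 states did not overlap. Smad6, an inhibitory SMAD, ran the other way after 0 h, with 0.507, 0.374 and 0.595 CPM at 0 h, 2.56, 2.5 and 1.57 CPM in the early libraries and 6.36, 4.91 and 4.83 CPM in the later ones. For both genes M22 and M23 lay nearer to the state they were moved to. Id1 had 3.99, 4.17 and 4.89 CPM in the early libraries, against 2.09, 0.805 and 1.82 CPM at 0 h, and was not called in the 7-library fit (1.38, SE 0.33, edgeR adjusted p = 0.109) unless M17 was left out (edgeR adjusted p = 0.0408). Smad7, the other inhibitory SMAD, had 7.83, 9 and 7.81 CPM in the early libraries, against 4.22, 4.37 and 4.66 CPM at 0 h. Bambi, a decoy receptor, was the member below 0 h (-0.36).

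**Figure D4:**
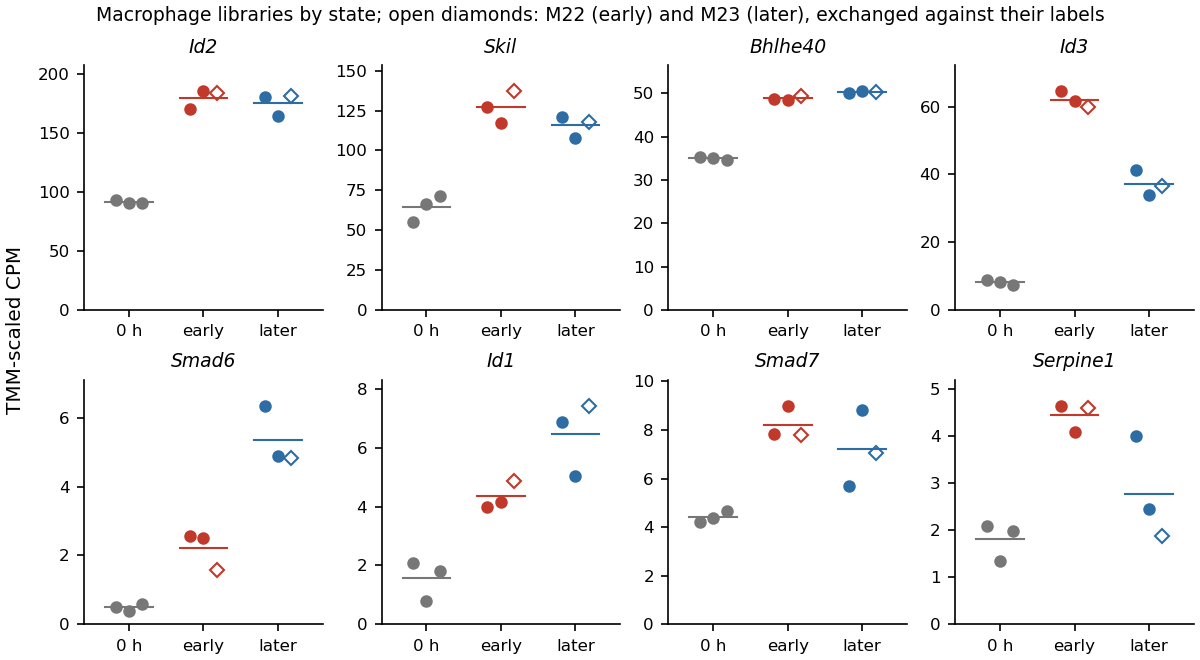
TMM-scaled CPM of 7 TGF-beta and BMP targets and of Bhlhe40 in each macrophage library at 0 h, in the early state and in the later state; bars are means of 3 libraries and open diamonds are M22 (early) and M23 (later). Id2, Skil and Bhlhe40 are above 0 h in both ImP states, Id3 is higher in the early (59.9 to 64.5 CPM) than in the later state, and Smad6 is lowest at 0 h and highest in the later state.

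Most of the genes at least 2-fold higher in the early state were less than 2-fold above 0 h in the later state. Of the 20 named genes on the higher side, Id3 and Mir155hg were the 2 still at least 2-fold above 0 h in the later state, and of the 69 genes at least 2-fold higher that averaged 1 CPM or more there were 6. The 20 named genes ended with Ier3 at a log2 fold change of 2.24, and the first outside was Gpr84 at 2.18. The later and the early state share the 0 h libraries. M23 was placed in the later state because its inflammatory genes were low. The genes counted were also chosen for being high in the early libraries, so the lower later levels are in part built into the layout. M15 and M19 were in the later state by label. Over the 111 genes called higher in the fit without M22 and M23, their median places were 0.07 and 0.08. On that scale the 0 h mean is 0 and the mean of M14 and M18 is 1.

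On the lower side, of the 5 genes at least 2-fold lower that averaged 1 CPM or more, 4 were predicted genes or clones. The fifth, Lars2, which encodes the mitochondrial leucyl-tRNA synthetase, had 134, 118 and 132 CPM in the early libraries, against 172, 1060 and 148 CPM at 0 h. Its log2 fold change of -1.85 rests on M17, the library with the high ribosomal RNA count, and was -0.314 without it. Of the 10 named genes on the lower side 1 was called in the 7-library fit: Ptger1, a receptor for prostaglandin E2, had 4.68, 5.31 and 9.85 CPM in M14, M18 and M22, against 10.5, 12 and 11.1 CPM at 0 h (7-library fit -1.17, SE 0.19, edgeR adjusted p = 0.00757, and 0.052 without M21). On a log2 scale with the 0 h mean at 0 and the mean of M14 and M18 at 1, Ptger1 lay at 0.161 in M22 and 0.954 in M23, beside 0.444 in M15 and 1.035 in M19, so M22 was near 0 h and M23 near M14 and M18. The blood coagulation inhibitor gene Serpinc1 (-0.96) had 2, 1.25 and 1.5 CPM in the early libraries, against 3.68, 2.53 and 3.01 CPM at 0 h, and was not called.

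Many genes for ribosomal proteins and for nuclear subunits of oxidative phosphorylation lay slightly below 0 h. Of 83 genes for cytosolic ribosomal proteins 45 lay below 0 h in all 3 early libraries (54.2%, beside 6.91% of all genes) and 0 lay above, with a median log2 fold change of -0.16. The 7-library fit called 5 lower, beside 0.104% of all genes. In M22, which that fit left out, Rpl35 lay above all 3 libraries at 0 h, whereas the calls Rpl39, Rps24, Rps27 and Rps28 lay below. Rps28 had 129, 149 and 148 CPM in the early libraries, against 180, 177 and 169 CPM at 0 h. Of 30 nuclear genes of oxidative phosphorylation 14 lay below and 0 above, with a median of -0.15, and 0 were called by edgeR in the 7-library fit (9 at an unadjusted p under 0.05). Of 13 mitochondrially encoded genes 1 lay below (7.69%, near the share of all genes) and the other 12 overlapped, with a summed level of 19000 to 24100 CPM in the early libraries and 22200 to 25500 CPM at 0 h. The 7-library fit called mt-Nd3 and mt-Co3 lower, but mt-Co3 overlapped with 0 h in M22. The member below was mt-Nd3, which had 168, 202 and 239 CPM in the early libraries, against 251, 267 and 272 CPM at 0 h. Transcripts of these groups are short, and libraries differed in how level moved with exon length: over 8411 genes the rank correlation with exon length of a library's deviation from the mean of these libraries was 0.19, -0.053 and 0.092 in M14, M18 and M22 and -0.36, -0.089 and 0.2 in M13, M17 and M21. The part of transcript length in these differences was not tested.

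In groups tied to atherosclerosis and to known ImP signalling most genes differed little. Among 17 genes of lipid uptake and efflux Olr1, for the oxidised LDL receptor LOX-1, was the 1 called higher, with 2.18, 1.62 and 2.46 CPM in the early libraries and 0.0317, 0.0575 and 0.231 CPM at 0 h. Cd36 (-0.13) and Msr1 (-0.08), for other scavenger receptors, overlapped between states. Of 16 genes of adhesion and coagulation 3 lay above 0 h (18.8%, beside 6.64% of all genes) and 1 below (6.25%, beside 6.91%). Among these 16 Icam1, a ligand of leukocyte integrins, had 96.9, 83.9 and 101 CPM in the early libraries, against 43.4, 48 and 45.7 CPM at 0 h. It and the integrin gene Itga5 (0.37) were the 2 called higher, beside 0.824% of all genes, and Vcam1 had a log2 fold change of 0.00. Of 17 components of ImP-linked signalling, which include the mTOR pathway and the proposed ImP receptor gene Nisch (0.12), 0 were called by edgeR in the 7-library fit (3 at an unadjusted p under 0.05), with a median of 0.01. Sqstm1, for the autophagy adaptor p62, had 691 to 722 CPM in the early libraries and 586 to 606 CPM at 0 h (edgeR adjusted p = 0.0893). Of 16 hypoxia and glycolysis genes 0 were called by edgeR (1 at an unadjusted p under 0.05).

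The 7-library fit allows M22 and M23 to be placed on genes called without them, as a description. Each library's log2 level was scaled so that the 0 h mean is 0 and the mean of M14 and M18 is 1. The genes called higher include inflammatory genes such as Tnf and Il1b, by which M22 and M23 were exchanged. Their places therefore restate that choice in part and are no independent check of it. Over the 111 genes called higher, M22 had a median place of 1.03 (quartiles 0.97 and 1.13) and lay above all 3 libraries at 0 h in 110. M23 had a median place of 0.04 (quartiles -0.09 and 0.2), beside 0.07 in M15 and 0.08 in M19. M23 lay above all 3 libraries at 0 h in 45 of these genes, M15 in 49 and M19 in 53. For the 14 genes called lower the layout was less clear, with M22 at 0.32 and M23 at 0.08, beside 0.56 in M15 and 0.87 in M19. All 20 named genes on the higher side were called in the 7-library fit and 0 of 20 in the contrast as labelled, where M23 lay below all 3 early libraries for each of the 20. These 20 genes were chosen for their rise in M14, M18 and M22, so their counts are also in part built into the layout. With M22 and M23 as labelled, 79 genes were at least 2-fold higher without overlap, against 126 with the pair exchanged. The lower side went the other way, with 47 genes as labelled against 35 with the pair exchanged.

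**Figure D5:**
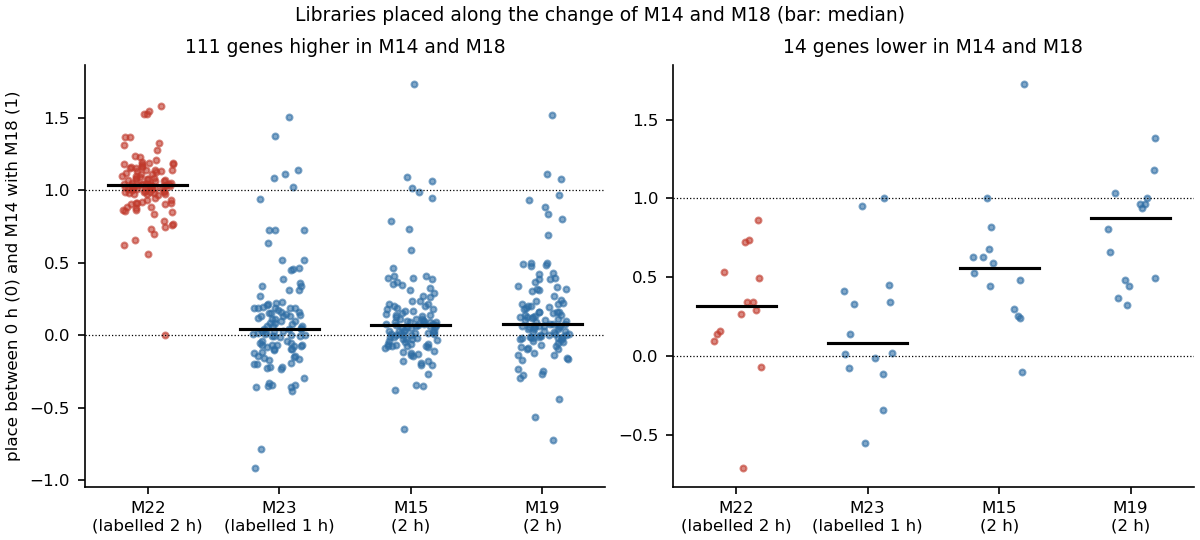
Place of M22, M23, M15 and M19 between the 0 h mean (0) and the mean of M14 and M18 (1), on a log2(CPM + 0.5) scale, for genes called in the 7-library fit; 1 point per gene and bars at the medians. Over the 111 higher genes M22 has a median of 1.03 and M23 of 0.04; over the 14 lower genes M19, at 0.87, is nearer to M14 and M18 than M22, at 0.32.

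Fibroblasts given ImP for 1 h, compared with fibroblasts at 0 h, had 0 of 14066 genes called in either direction (0%) by edgeR. DESeq2 called 9 higher and 1 lower there, and 826 genes had an unadjusted edgeR p under 0.05. Of the 20 named macrophage genes 14 could be tested there and 0 were called. Nfkbia had a log2 fold change of 0.64 in fibroblasts (edgeR adjusted p = 0.566) and Socs3 of 0.03, beside 2.54 and 5.53 in the 7-library macrophage fit. The difference between cell types was not tested.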

How the data were processed

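RNA was sequenced from 27 mouse libraries. The values the authors deposited are estimated counts per gene symbol, all already whole, for 25192 symbols; the submitters' processing notes name RSEM and STAR, R 4.3.2 with DESeq2, and also cutadapt and FastQC, on GRCm38.p6. Per the labels, macrophage RNA was isolated with a kit named QIAamp DNA Mini, and libraries came from a directional kit. The strand of counting is not given in the sources used here, so genes that overlap another gene's exons on the opposite strand, 33 of the 133 named, are uncertain. Among those printed are Il1b, Il1a, Tnfsf9, Cxcl10, Irf1, Junb, Dusp1, Icam1, Zfp36, Bhlhe40 and Ptger1. Symbols were matched to GENCODE M21, 24506 by symbol, 2 by synonym and 684 not matched.

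Macrophages were fitted with edgeR 4.0.16 in R 4.3.3: filterByExpr at a minimum count of 10, TMM scaling, and the robust quasi-likelihood F-test. Tests were two-sided, and p-values were adjusted over all genes tested by Benjamini-Hochberg, with a threshold of 0.05. There were 3 fits: groups as labelled, 7 libraries without M22 and M23, and the exchanged layout, used for levels, log2 fold changes and SEs with no p-value. Fibroblasts were fitted as labelled. At an unadjusted p under 0.05 there were 693 genes as labelled and 997 in the 7-library fit. Exon strand and position came from GENCODE M21, and promoters and microRNAs from RefSeq tables. The script was tested on simulated data.

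Named genes are, among those that average 1 CPM or more and do not overlap, the 20 furthest above and 10 furthest below 0 h, up to 4 members of each list by absolute fold change, and every gene called as labelled; predicted genes, clones and pseudogenes were left out, and further list members are named where a list is described. Members and lists were chosen with earlier results of these data known. Alternatives were DESeq2 1.42.0, RLE scaling, library totals, no low-count filter, a fit of only the groups compared, a block for each run of library codes, the labelled layout, and leaving out each library. The last was also done for the p-values of a few genes chosen after the spread of M17 was seen.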

Additional observations from a re-analysis of the deposited data

How the results depend on the processing

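The contrast as labelled, with 3 genes higher and 0 lower, had 12 and 1 in DESeq2, 8 and 1 without the low-count filter, and 1 lower with the 2 groups alone; leaving out 1 library gave 2 to 6 higher and 0 to 1 lower. Whether runs of library codes mark shared cultures is not stated in the sources used here, and deviations of same-run libraries correlated at 0.01, -0.02 and 0.13; with the runs as a replicate block 2 were higher and 0 lower. The 7-library fit (111 higher, 14 lower) had 38 lower in DESeq2, 243 higher and 78 lower without the filter, and 4 lower with the 5 libraries alone. Leaving out 1 library gave 71 to 145 higher and 1 to 31 lower; 145 and 31 were without M17 and 71 and 1 without M14, an alternative chosen after seeing the data, which assumes that the lone M18 varies like the other groups. The early state (126 higher, 35 lower) had 308 and 165 without the filter and 79 and 47 with M22 and M23 as labelled. Leaving out 1 library, which makes absence of overlap easier, gave 187 to 249 higher and 87 to 115 lower; 249 was without M13. In fibroblasts DESeq2 called 9 higher and 1 lower where edgeR called 0. The causes were not tested, apart from the fewer genes, libraries or conditions that a setting itself implies. Of 133 named genes 0 changed direction under any setting when called at 2-fold, and 55 moved by more than the spread between libraries with M22 and M23 as labelled. Library totals alone moved the median of all genes to 0.028, against -0.003.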

Other observations

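Other genes at least 2-fold above 0 h in the early libraries lay outside the lists. They were 28 of the 69 that averaged 1 CPM or more, and those given here were chosen after their values were seen. Clec4e, which encodes the C-type lectin receptor Mincle, had 42.1, 41.1 and 49.7 CPM in M14, M18 and M22, against 14.4, 15 and 13.3 CPM in M13, M17 and M21. Ccrl2, for an atypical chemerin receptor, had 47.4, 47.1 and 47.9 CPM in the early libraries, against 13.3, 15.1 and 12.6 CPM at 0 h. Both receptor genes were near 0 h in M23, at 14.1 and 13.7 CPM. Pde4b, for a phosphodiesterase that degrades cyclic AMP, had a log2 fold change of 1.93, and Errfi1, for an inhibitor of the EGF receptor, of 2.14.

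Stress and growth factor genes were among them. Gdf15, for a secreted stress factor, had 96.8, 93.7 and 93.9 CPM in the early libraries, against 34.6, 35.1 and 31.8 CPM at 0 h. Ppp1r15a, for the phosphatase subunit GADD34 of the integrated stress response, had 73.8, 65.4 and 74.9 CPM in the early libraries, against 22.6, 21.2 and 26.3 CPM at 0 h. The kinase gene Pim1 (1.20), the histone demethylase gene Kdm6b (1.24) and Cebpb (1.13), for a transcription factor of myeloid cells, were higher by smaller amounts, all without overlap. The 7-library fit called each of these genes (edgeR adjusted p from 2.99e-08 for Gdf15 to 0.0141 for Cebpb), with the limit on its p-values given above.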
